A study of Homo sapiens with 40 samples.

Results

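Genes for the nuclear-encoded subunits and named assembly factors of mitochondrial oxidative phosphorylation were followed across 40 expression arrays of A549, a cell line derived from a human lung carcinoma. They were chosen by symbol alone: every annotated gene whose symbol starts with NDUFA, NDUFB, NDUFC, NDUFS, NDUFV, SDHA to SDHD, UQCR or ATP5, or with COX followed by a digit from 4 to 8. The rule found 93 of the 18353 genes with a symbol, each read by its brightest probe. Of these, 85 had a mean log2 intensity above 5 in at least 1 group and entered the tests, among 10608 genes tested in all. The 85 comprised 31 complex I subunits, 8 complex I assembly factors, 3 complex II subunits, 4 complex II assembly factors, 6 complex III subunits, 10 complex IV subunits, 17 ATP synthase subunits, the supercomplex protein COX7A2L, the ATP synthase inhibitor ATP5IF1 and 4 gene copies. The copies (ATP5F1EP2, SDHAP1, UQCRBP1 and UQCRHL) share sequence with functional genes, and their probes may read either.

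Oxidative phosphorylation passes electrons from NADH (through complex I) and from succinate (through complex II) to coenzyme Q, complex III, cytochrome c and complex IV, which reduces oxygen. Complexes I, III and IV pump protons across the inner mitochondrial membrane, and ATP synthase (complex V) uses the gradient to make ATP. Most subunits are encoded in the nucleus, a core set is made on mitochondrial ribosomes, and assembly factors join them without staying in the finished enzyme.

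The cells were transfected with siRNA to deplete 1 of 4 coregulators of steroid receptors, namely CCAR1, CCAR2, ZNF282 and CoCoA (the product of CALCOCO1), or with a nonspecific siRNA (siNS). The medium was replaced with a hormone-free one 2 days after transfection, and on the following day the cells received 100 nM dexamethasone (dex), a synthetic glucocorticoid, or ethanol as vehicle for 6 h. The titles of the ethanol arrays carry 0 h, against 6 h of ethanol in the protocol. Each treatment had 4 arrays of siCCAR1, 4 of siCoCoA, 4 of siCCAR2, 2 of siZNF282 (titled ZFP282 #1, and numbered 2 and 3) and 6 of siNS. The labels name 1 siRNA per target and do not say whether arrays came from separate cultures, so the p-values below measure the spread between arrays, which may be technical.

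Each array correlated with the others of its group at a mean of 0.974 to 0.991 over the genes tested. ZNF282 averaged 6.14 ± 0.05 in siZNF282 dex cells and 6.99 ± 0.29 in siNS dex cells (SD, n = 2 and 6), and the log2 difference was -0.85 in dex and -1.42 in ethanol (adjusted p = 0.013 and 7.1e-05, limma). All 8 interferon-stimulated genes of a marker list were called higher in siZNF282 cells in both treatments, with median log2 differences from siNS of 6.29 in dex and 6.73 in ethanol. On single arrays the median of these 8 genes, as a difference from the siNS ethanol mean, lay between 6.62 and 6.94 in siZNF282 cells, between 2.35 and 5.88 in the other depletions, and between -0.75 and 2.48 in siNS cells. Among leukocyte markers, PTPRC and CD3E were not above the line, CD14 was above it and not called (means of 7.44 in siZNF282 dex and 7.27 in siNS dex cells), and CD68 lay at 12.80 and 12.99 on the siZNF282 dex arrays and between 8.62 and 9.69 on the siNS dex arrays. The 4 endothelial markers were not above the line, and of 5 fibroblast markers 3 were above it, with none called and none at an unadjusted p under 0.05. The part of these markers in the results below was not tested. In bulk RNA, fewer cells with a transcript and less of it per cell cannot be told apart.

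The oxidative phosphorylation genes were among the brightest on the arrays. Their median level over 40 arrays was 10.98, against 7.31 for all genes tested, and 57 of 85 (67.1%) lay above 10, against 12.3% of all genes. A level on an array also depends on the probe, so levels are not ordered between genes. Complex IV subunits had levels from 11.29 to 13.30. The genes not above the line were COX4I2, COX6A2, COX7A1, COX7B2, COX8C, NDUFA5, NDUFB4 and NDUFB2-AS1, with highest group means of 4.42 to 4.91. Of these, COX6A2, COX7A1 and COX8C are isoforms known from muscle or testis and COX4I2 is known from lung, while their widespread partners COX6A1, COX7A2, COX8A and COX4I1 were all above the line. Levels varied little between groups: the distance from the lowest to the highest of the 10 group means had a median of 0.44 over the 85 genes, against 0.76 over all genes. The lowest group mean was in siZNF282 cells for 63 of 85 genes (74.1%), 42 of them in dex and 21 in ethanol, against 35.9% of all genes.

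Depletion of ZNF282 was the comparison in which these genes moved most often, and all the calls were falls. In dex, 29 of 85 (34.1%) were called lower than in siNS cells and none higher, where 15% of all genes were called lower and 15.5% higher (limma, adjusted p under 0.05 over 10608 genes). The median log2 difference was -0.24 for the 85 genes and -0.02 for all genes, and 70 of the 85 had a value below 0. In ethanol, 15 of 85 (17.6%) were called lower and none higher, where 17.1% of all genes were called lower and 14.5% higher, so the share in ethanol was close to that of all genes. The median difference in ethanol was -0.19, against -0.08 for all genes. Of the 15 genes lower in ethanol, 13 were also lower in dex, which is 86.7% of the ethanol falls and 44.8% of the dex falls. Over all genes called lower the shares were 59.9% of the ethanol falls and 68.5% of the dex falls. Both siZNF282 arrays lay below all 6 siNS arrays for 40 of 85 genes in dex, where 18.3% of all genes did, and for 26 in ethanol, where 21.2% of all genes did. The dex count depends on siZNF282 array 2: without it 7 genes were called lower, without array 3 it was 21, and a fit over the 2 groups alone called 14.

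**Figure D1:**
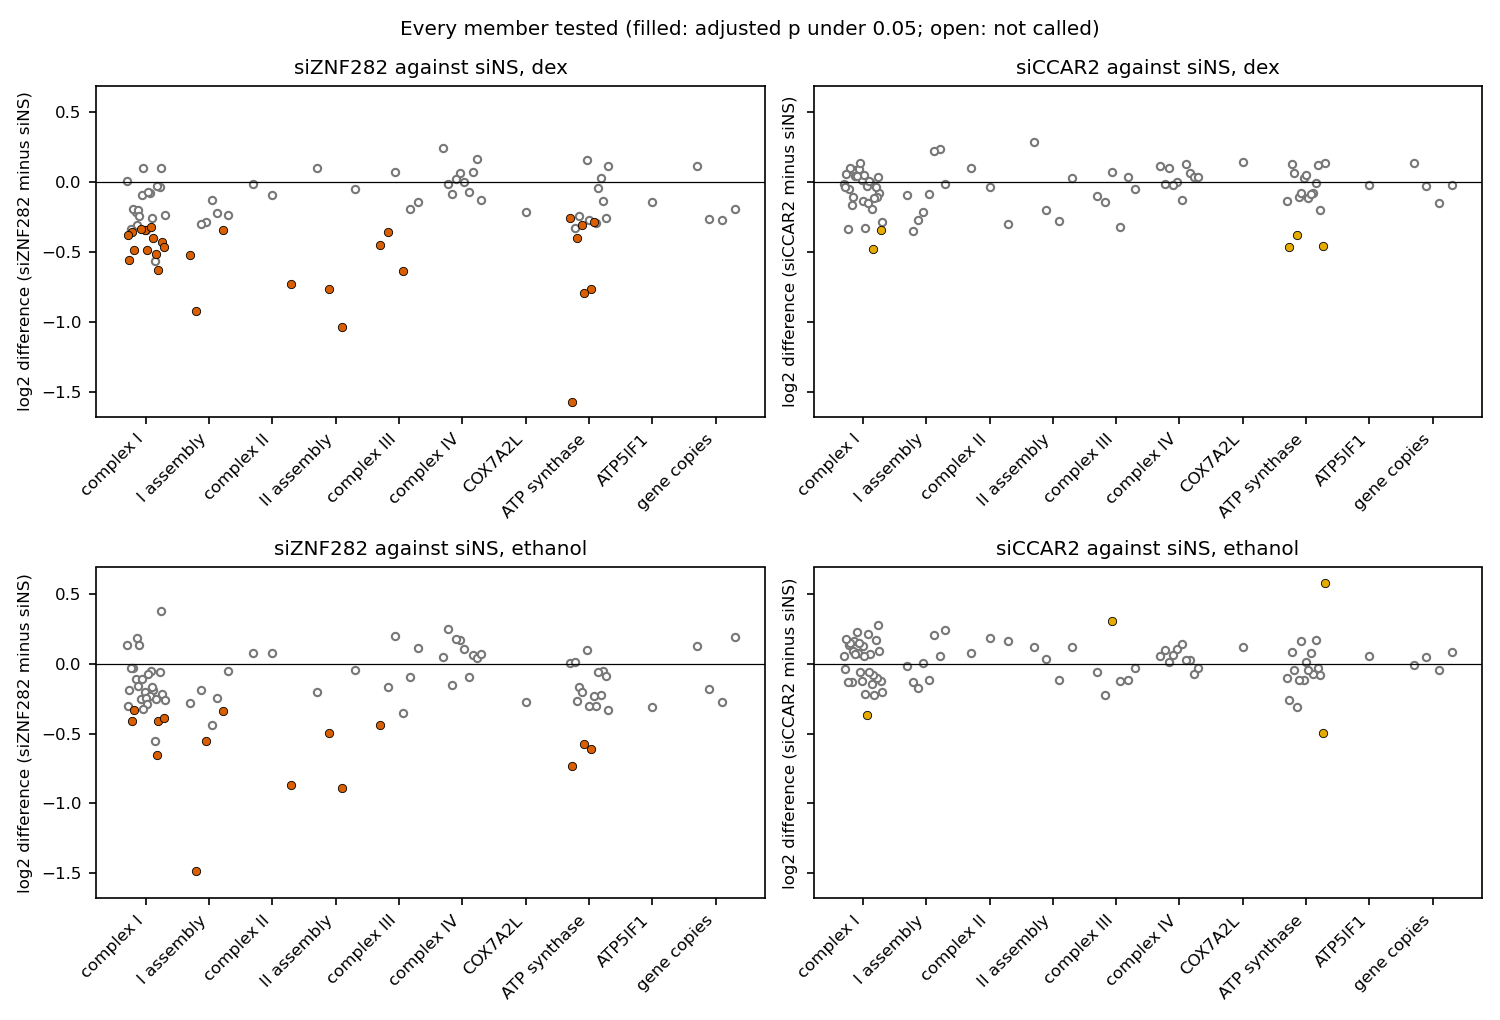
Log2 difference of each of the 85 genes (vertical axis) by complex (horizontal axis), for siZNF282 against siNS (left) and siCCAR2 against siNS (right), in dex (top) and ethanol (bottom). Filled points passed adjusted p under 0.05. In siZNF282 cells all filled points lie below 0, 29 in dex and 15 in ethanol, and none belongs to the 10 complex IV subunits.

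Among complex I subunits, 13 of 31 were called lower in siZNF282 dex cells (median difference -0.32) and 5 of 31 in ethanol (median -0.20). Of all genes, 15% were called lower in dex and 17.1% in ethanol, so the ethanol share was close to that of all genes. Of the 5 conserved core subunits tested, NDUFS3 was called lower, at -0.49 in dex. Of the other 26, which surround the core, 12 were called lower in dex, and NDUFA7, NDUFB6, NDUFB9 and NDUFB8 fell by 0.63, 0.55, 0.51 and 0.48. The NDUFB9 call was lost under 5 alternatives, no filter among them, and the NDUFB8 call under 1. The median dex difference was below 0 in both parts, at -0.24 for the 5 core subunits and -0.33 for the other 26. NDUFA7 lay at 8.07 and 8.21 on the siZNF282 dex arrays, and at 8.46, 8.80 and 8.95 (lowest, median and highest) on the siNS dex arrays. The groups did not overlap, and the adjusted p was 0.0028, or 0.073 without siZNF282 array 2.

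Among complex I assembly factors, NDUFAF8, NDUFAF1 and NDUFAF3 were called lower in siZNF282 dex cells, 3 of 8, where 15% of all genes were. The NDUFAF3 call was lost under 8 alternatives, the replicate block among them, and the NDUFAF1 call under 2. NDUFAF8, which acts with NDUFAF5 in building complex I, lay at 4.50 and 5.22 on the siZNF282 dex arrays, and at 5.35, 5.85 and 6.09 (lowest, median and highest) on the siNS dex arrays. In ethanol it lay at 4.40 and 4.63 in siZNF282 cells, and at 5.81, 6.00 and 6.19 in siNS cells. The groups did not overlap in either treatment, but both siZNF282 means (4.86 and 4.52) are under the line of 5, so the differences of -0.92 in dex and -1.49 in ethanol (adjusted p = 0.0049 and 2.0e-05) run into the background of the array. Without siZNF282 dex array 2 the dex value was -0.56 and not called (adjusted p = 0.26). In ethanol NDUFAF6 was also called lower, at -0.56, and so was NDUFAF3, with means of 10.49 in siZNF282 and 10.83 in siNS cells. The ethanol call of NDUFAF3 was lost under 7 alternatives.

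In complex II (succinate dehydrogenase), the falls were in a membrane anchor and in a pair of assembly factors. SDHD, 1 of the membrane anchor subunits, lay at 9.17 and 9.13 on the siZNF282 dex arrays, and at 9.75, 9.85 and 10.06 (lowest, median and highest) on the siNS dex arrays. In ethanol it lay at 9.21 and 8.49 in siZNF282 cells, and at 9.52, 9.71 and 10.00 in siNS cells. The groups did not overlap in either treatment, and the differences were -0.72 ± 0.16 in dex and -0.87 ± 0.16 in ethanol (SE; adjusted p = 5.5e-04 and 6.0e-05). SDHAF3, an assembly factor that aids the iron-sulphur subunit, lay at 8.51 and 8.76 on the siZNF282 dex arrays, and at 9.37, 9.67 and 10.06 on the siNS dex arrays. In ethanol it lay at 8.61 and 9.13 in siZNF282 cells, and at 9.67, 9.78 and 9.83 in siNS cells. These groups did not overlap either, and the differences were -1.04 in dex and -0.89 in ethanol (adjusted p = 2.4e-07 and 3.8e-06). A second SDHAF3 probe gave -1.33 and -1.13. SDHAF4, which binds the flavin subunit during assembly, was close to background and was called lower at -0.76 in dex and -0.49 in ethanol, where its arrays overlapped with those of siNS cells. The ethanol call (adjusted p = 0.046) was lost under 11 alternatives, the replicate block among them, and was -0.15 without siZNF282 array 2, while the dex call was lost without array 3. SDHA and SDHC were not called on their brightest probes (-0.01 and -0.09 in dex), whereas a second probe of each gave -0.59 and -0.56, so their values depend on the probe.

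Complex III had 3 of 6 subunits called lower in siZNF282 dex cells: UQCRC2, a core protein, at -0.63, UQCR10 at -0.45 and UQCRB at -0.35. Of all genes, 15% were called lower there. UQCRC2 lay at 8.74 and 9.19 on the siZNF282 dex arrays, and at 9.25, 9.65 and 9.73 (lowest, median and highest) on the siNS dex arrays, with no overlap, but without siZNF282 array 2 its value was -0.40 and not called (adjusted p = 0.33). In ethanol UQCR10 was called lower, at -0.44, and its calls in both treatments were lost with the mean of its probes.

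Of the 10 complex IV subunits, limma called none in either treatment, and 1 had an unadjusted p under 0.05 in each. Their median difference was 0.01 in dex and 0.07 in ethanol, with values from COX7B at -0.13 to COX4I1 at 0.24 in dex. COX7A2L and ATP5IF1 were not called in either treatment, and a second, dim ATP5IF1 probe gave -0.25 in dex and -0.93 in ethanol.

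ATP synthase had 7 of 17 subunits called lower in siZNF282 dex cells and 3 of 17 in ethanol. Of all genes, 15% were called lower in dex and 17.1% in ethanol, so the ethanol share was close to that of all genes. The 7 dex calls held 1 of the 5 subunits of the catalytic head and central stalk (ATP5F1A, -0.25). The others were 6 of the 12 subunits of the membrane part and peripheral stalk. The median dex differences of these parts were close, at -0.24 for the 5 and -0.29 for the 12. The ATP5F1A call was lost under 8 alternatives. ATP5F1D, in the central stalk, was at -0.24 in dex on its brightest probe, and a second, dimmer probe gave -0.76. ATP5MC1, 1 of the genes for the c subunit of the membrane rotor, had the largest difference of the 85 genes in dex and ranked 21 from the bottom of all 10608. It lay at 9.45 and 10.48 on the siZNF282 dex arrays, and at 11.30, 11.56 and 11.66 (lowest, median and highest) on the siNS dex arrays. In ethanol it lay at 10.83 and 10.82 in siZNF282 cells, and at 11.50, 11.54 and 11.67 in siNS cells. The groups did not overlap, and the siZNF282 dex arrays stood 1.04 apart. The difference was -1.57 ± 0.15 in dex, 33.7% of the siNS level, and -0.73 ± 0.15 in ethanol, 60.2% of it (SE; adjusted p = 4.6e-10 and 3.5e-04). Without siZNF282 array 2 the dex difference was -1.05 and still called. A second, dimmer ATP5MC1 probe gave -0.67 in dex and 0.08 in ethanol, and the mean of both probes was not called in ethanol (-0.33, adjusted p = 0.16). ATP5MC2 and ATP5MC3 encode the same mature protein as ATP5MC1, and neither was called on its brightest probe (-0.27 and -0.26 in dex). A second, dimmer ATP5MC2 probe gave -0.98 in dex and -0.83 in ethanol.

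ATP5PB, subunit b of the peripheral stalk, lay at 10.67 and 10.79 on the siZNF282 dex arrays, and at 11.30, 11.52 and 11.76 (lowest, median and highest) on the siNS dex arrays. In ethanol it lay at 10.68 and 10.89 in siZNF282 cells, and at 11.15, 11.37 and 11.52 in siNS cells. Neither treatment showed overlap, and the differences were -0.79 and -0.58 (adjusted p = 2.4e-06 and 3.0e-04). ATP5MJ, a small membrane subunit, lay at 9.47 and 9.95 on the siZNF282 dex arrays and at 9.34 and 10.14 in ethanol, against ranges of 10.40 to 10.55 and 10.17 to 10.60 in siNS cells. Its differences of -0.76 and -0.61 passed the test, and both calls were lost without siZNF282 array 2 of the treatment.

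**Figure D2:**
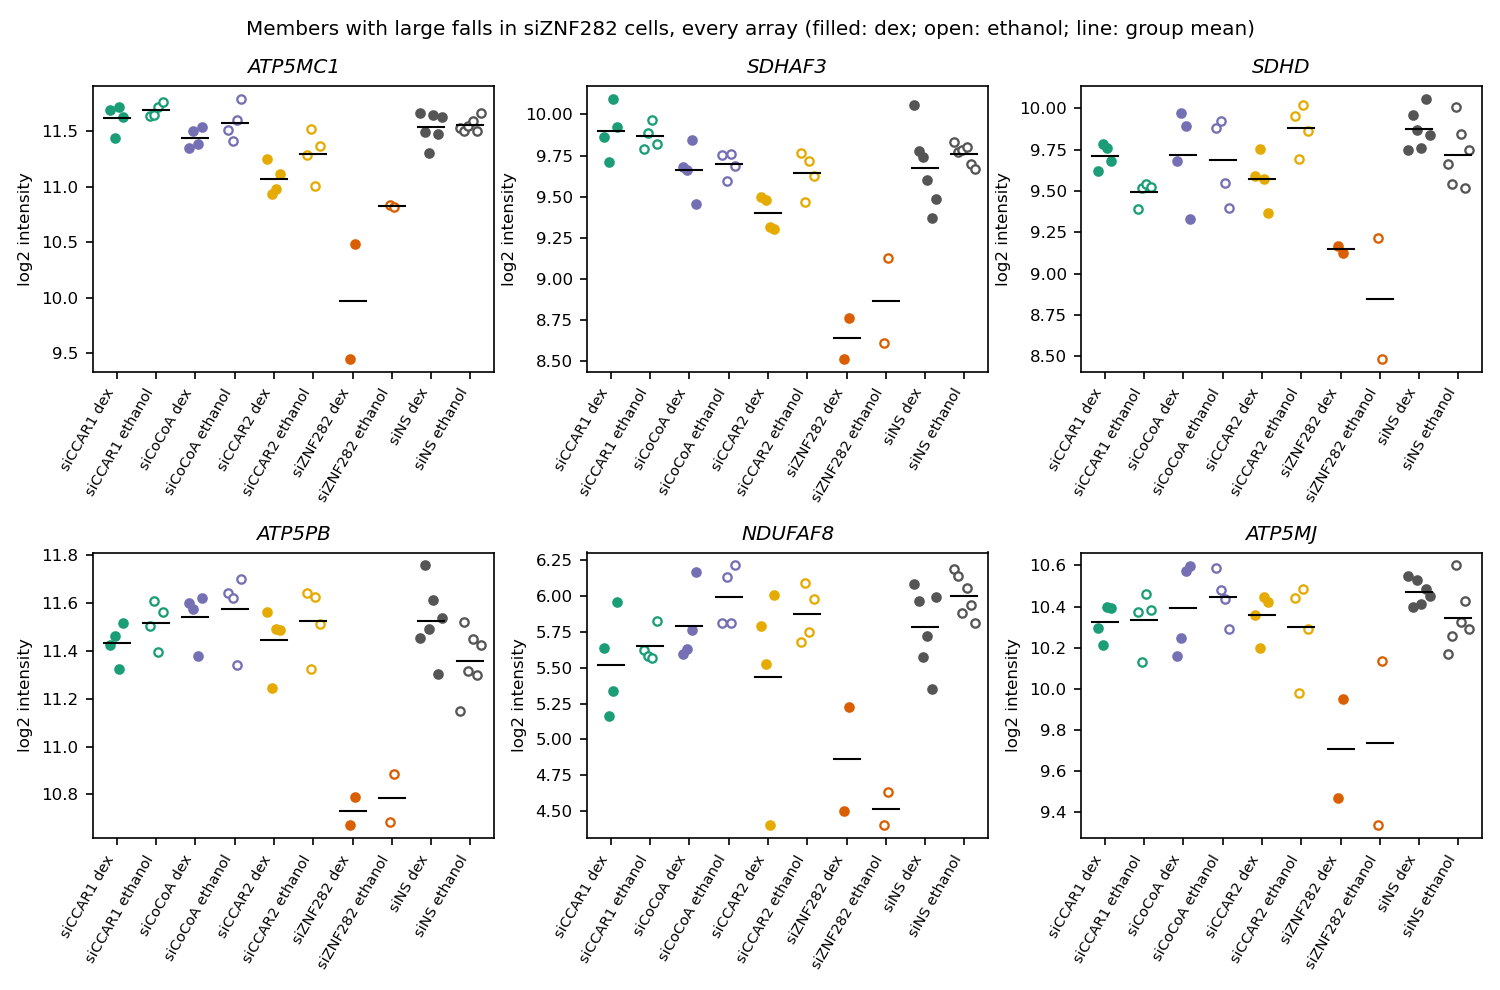
Log2 intensity of 6 genes on every array (points), by siRNA and treatment, with the group mean as a line. For ATP5MC1, SDHAF3, SDHD, ATP5PB, NDUFAF8 and ATP5MJ the siZNF282 arrays lie below all 6 siNS arrays of the same treatment.

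The sequence before the start of 5 genes is shown. They had the largest dex falls among the 13 called lower in both treatments, leaving out NDUFAF8 and SDHAF4, which lay near background. Each is the 250 bases upstream of the RefSeq start (GRCh38.p14), read along the gene, with matches in capitals to the consensus of nuclear respiratory factor 1 (NRF1, a regulator of many respiratory genes), to CCGGAAG (ETS factors) or TGACGTCA (CREB), on either strand.
ATP5MC1 (chr17:48892537-48892786, plus strand): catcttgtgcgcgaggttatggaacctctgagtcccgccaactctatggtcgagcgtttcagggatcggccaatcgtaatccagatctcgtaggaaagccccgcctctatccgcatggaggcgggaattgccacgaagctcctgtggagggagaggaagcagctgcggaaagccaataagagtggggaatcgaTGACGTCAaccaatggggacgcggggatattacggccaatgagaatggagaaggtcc
ATP5PB (chr1:111449214-111449463, plus strand): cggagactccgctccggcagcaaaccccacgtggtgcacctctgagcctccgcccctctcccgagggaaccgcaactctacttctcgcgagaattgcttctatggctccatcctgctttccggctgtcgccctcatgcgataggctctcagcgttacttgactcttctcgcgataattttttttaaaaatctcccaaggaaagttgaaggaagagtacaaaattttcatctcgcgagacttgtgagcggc
ATP5MJ (chr14:103921530-103921779, minus strand): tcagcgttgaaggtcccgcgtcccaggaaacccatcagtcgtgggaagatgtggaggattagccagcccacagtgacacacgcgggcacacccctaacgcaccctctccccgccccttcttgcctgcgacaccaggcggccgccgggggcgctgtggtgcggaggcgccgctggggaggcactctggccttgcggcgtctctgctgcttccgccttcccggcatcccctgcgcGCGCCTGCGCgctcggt
SDHD (chr11:112086623-112086872, plus strand): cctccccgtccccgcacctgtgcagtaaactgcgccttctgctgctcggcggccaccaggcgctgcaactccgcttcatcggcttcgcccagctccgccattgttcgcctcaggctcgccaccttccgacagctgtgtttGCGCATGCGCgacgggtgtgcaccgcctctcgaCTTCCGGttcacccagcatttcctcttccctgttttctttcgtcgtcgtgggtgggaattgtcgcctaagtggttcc
SDHAF3 (chr7:97117448-97117697, plus strand): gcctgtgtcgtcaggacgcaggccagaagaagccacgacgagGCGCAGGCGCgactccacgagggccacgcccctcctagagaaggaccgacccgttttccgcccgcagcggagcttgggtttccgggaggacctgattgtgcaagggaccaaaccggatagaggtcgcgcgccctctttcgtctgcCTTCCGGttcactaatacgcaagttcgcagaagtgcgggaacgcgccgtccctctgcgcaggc
SDHD and SDHAF3 each hold an NRF1 and an ETS match, ATP5MJ an NRF1 match and ATP5MC1 a CREB match, while ATP5PB holds none of these letters in this window. Of all 13 genes lower in both treatments, 4 hold the NRF1 consensus: SDHD, SDHAF3, ATP5MJ and SDHAF4. Promoter windows were found for 70 of the 85 genes. The NRF1 consensus was present in 13 of the 70 (18.6%), against 12.2% of the tested genes with a window and 6.20% of all genes with one. It stood in 9 of the 27 windows of genes called lower in siZNF282 dex cells and in 4 of the 43 others. Over all tested genes it stood in 13.6% of those called lower there and 12.0% of the rest. The split among the 70 rests on dex calls, of which 14 stayed in a fit over the groups compared. Of the 9 genes, ATP5ME, ATP5PO, NDUFA11 and NDUFA3 were not among those 14. The split itself was not tested. The ETS letters were in 27.1% of the 70 windows, against 18.9% of those of tested genes and 10.2% of all. The CREB letters were in 5.71%, against 3.54% and 2.03%, and CCAAT (not in capitals above) was in 34.3%, against 42.2% and 37.0%. Split in the same way by the dex call, the ETS letters were in 7 of 27 and 12 of 43 windows, the CREB letters in 2 of 27 and 2 of 43, and CCAAT in 8 of 27 and 16 of 43. These are counts of letters and not of bound sites.

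The falls in siZNF282 cells were also present against the other depletions, a comparison added after the results against siNS were seen. In dex, 30 of 85 were called lower and none higher than the mean of siCCAR1, siCoCoA and siCCAR2 cells, where 12.7% of all genes were called lower. In ethanol it was 27 of 85, where 15.4% of all genes were called lower. Of the genes lower than in siNS cells, 24 of 29 in dex and 13 of 15 in ethanol were among them; both comparisons share the siZNF282 arrays. ATP5MC1 differed by -1.41 in dex and -0.70 in ethanol from the other depletions, and SDHAF3 by -1.02 and -0.87. Some genes not called against siNS were called lower here: ATP5MC2 (-0.37 in dex and -0.38 in ethanol), COX7A2L (-0.31 and -0.38) and the complex IV subunit COX7A2 (-0.23 in each) in both treatments, and ATP5IF1 (-0.41) in ethanol. Without siZNF282 array 2 the counts were 6 in dex and 12 in ethanol.

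The nuclear genes of other mitochondrial systems were counted from lists written from general knowledge. For comparison, 15% of all genes were called lower and 15.5% higher in siZNF282 dex cells than in siNS cells. In ethanol 17.1% were lower and 14.5% higher. Of 74 genes with a mitochondrial ribosomal protein symbol, 37 were called lower in siZNF282 dex cells and 1 higher (median difference -0.38), and in ethanol 32 were lower and none higher (median -0.31). Of 22 protein import genes, 11 were lower and none higher in dex, and 9 lower and 1 higher in ethanol. Among 32 further assembly factors, 16 were lower and 1 higher in dex, and 10 lower and 1 higher in ethanol. Among 13 electron carrier and nucleotide exchange genes, 7 were lower and 1 higher in dex, and 8 lower and 1 higher in ethanol. CYC1, cytochrome c1 of complex III, which the symbol rule does not take, was at 10.76 and 10.82 on the siZNF282 dex arrays and between 11.22 and 11.78 on the siNS dex arrays, a difference of -0.72 (adjusted p = 9.1e-06). Coenzyme Q synthesis genes were lower in 5 of 12 cases in dex and 6 of 12 in ethanol, with 1 higher in each. Of 11 tricarboxylic acid cycle genes, 1 was lower and none higher in dex and none was called in ethanol, where none had an unadjusted p under 0.05. Of 15 regulators of mitochondrial biogenesis, 2 were lower and 1 higher in dex, and 1 lower and none higher in ethanol. No mitochondrially encoded gene was analysed here.

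**Figure D3:**
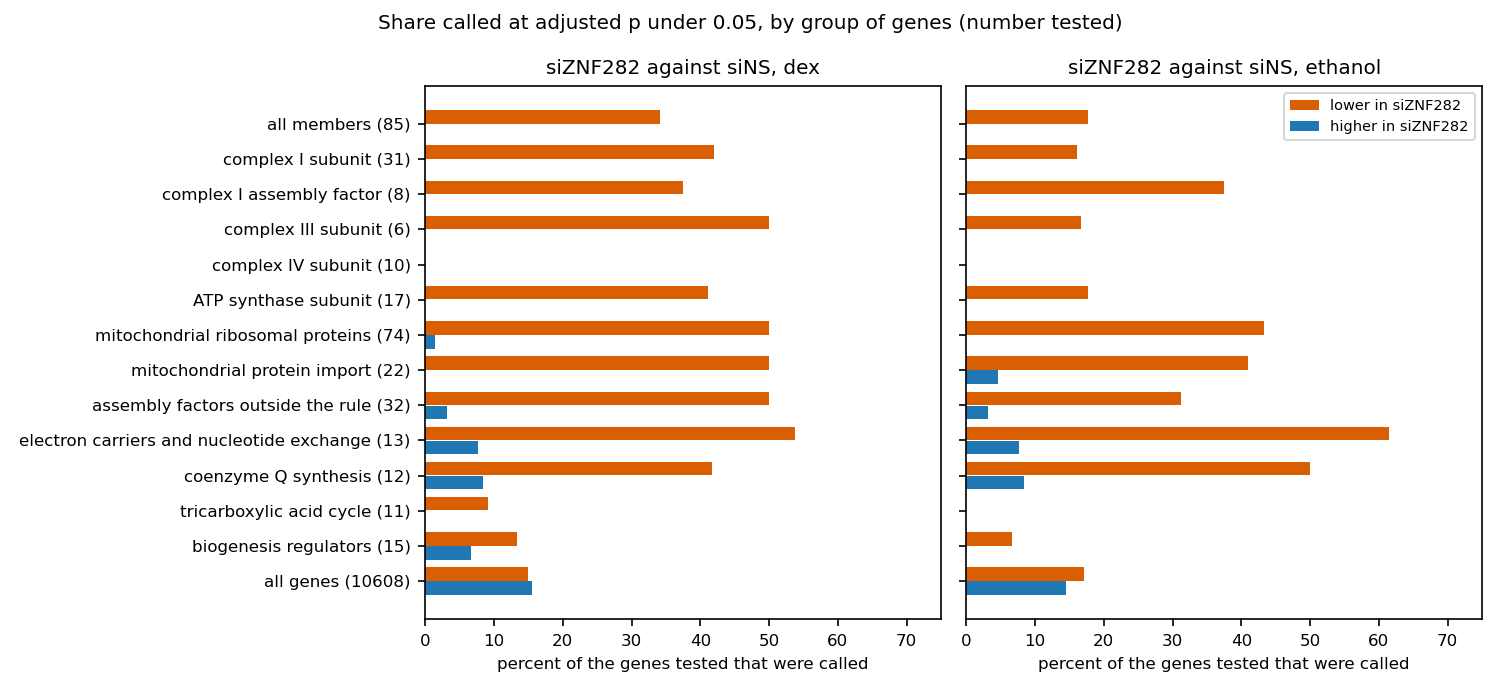
Percent of genes called lower (orange) or higher (blue) in siZNF282 against siNS cells (horizontal axis), by group of genes with the number tested, in dex (left) and ethanol (right). Among the 85 genes 34.1% were lower in dex and 17.6% in ethanol, against 15% and 17.1% of all 10608 genes, and complex IV has no bar.

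The shift was seen on each siZNF282 array. The median of the 85 genes, as a log2 difference from the siNS ethanol mean, was -0.21 and -0.16 on the siZNF282 dex arrays and -0.20 and -0.10 on the siZNF282 ethanol arrays. On the other 36 arrays it lay between -0.05 and 0.15, with no overlap. For the mitochondrial ribosomal protein genes it was -0.40 on both siZNF282 dex arrays, -0.35 and -0.26 in ethanol, and between -0.17 and 0.05 on the other 36 arrays. For all genes the median was between -0.10 and -0.04 on the siZNF282 arrays and between -0.06 and 0.03 on the others.

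**Figure D4:**
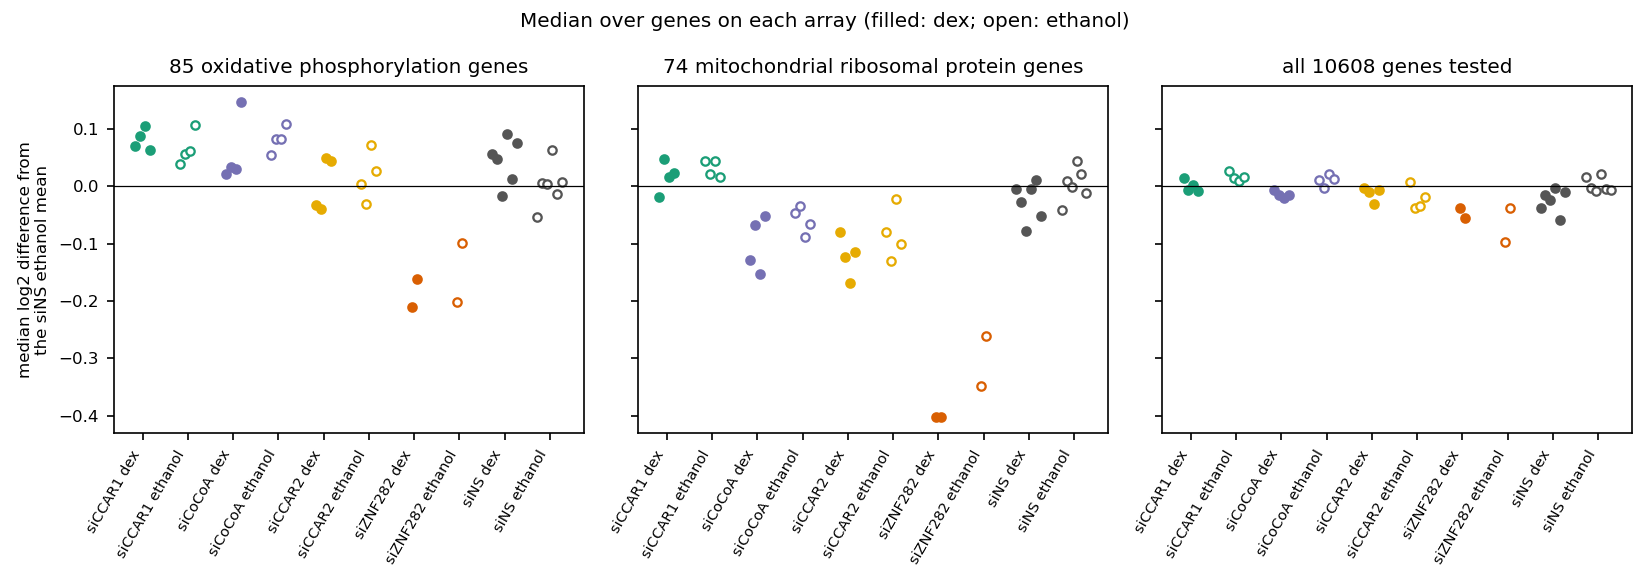
Median log2 difference from the siNS ethanol mean on each array (points), by siRNA and treatment, for the 85 oxidative phosphorylation genes, 74 mitochondrial ribosomal protein genes and all 10608 genes. The 4 siZNF282 arrays lie between -0.21 and -0.10 in the left panel, below all other arrays.

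After depletion of CCAR1, few of these genes moved. In dex, 6 of 85 were called higher and 1 lower than in siNS cells, where 10.1% of all genes were called higher and 8.9% lower (19% in either direction), and in ethanol 3 were higher and 1 lower, where 7.31% and 6.5% of all genes were. The largest difference was that of NDUFAF3, which acts with NDUFAF4 early in complex I assembly. It lay at 11.51, 11.36, 11.36 and 11.68 on the siCCAR1 dex arrays, and at 10.40, 10.68 and 10.98 (lowest, median and highest) on the siNS dex arrays. In ethanol it lay at 11.51, 11.47, 11.36 and 11.56 in siCCAR1 cells, and at 10.58, 10.85 and 10.99 in siNS cells. The groups did not overlap, and the differences were 0.79 in dex and 0.65 in ethanol (adjusted p = 5.1e-07 and 1.9e-05). NDUFAF7, an arginine methyltransferase that modifies complex I, was higher in ethanol at 0.47. The other rises in dex, of SDHAF2, NDUFB7, ATP5PD, NDUFB5 and COX7A2, were between 0.21 and 0.31. The calls of NDUFB5 and COX7A2 were each lost under 7 alternatives, that of SDHAF2 under 6, and those of NDUFB7 and ATP5PD under 3 each. A second ATP5PD probe of similar level gave 0.07. ATP5MK, a small ATP synthase subunit near background, was called lower at -0.46 in dex and -0.44 in ethanol. Its siCCAR1 means (4.62 and 4.66) are under the line of 5, and the calls were lost under 4 alternatives in dex and 11 in ethanol. A fit over the 2 groups alone called 2 genes in dex.

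After depletion of CoCoA, 5 of 85 were called higher in each treatment and none lower. In dex 11% of all genes were called higher and 9.07% lower (20.1% in either direction), and in ethanol 8.44% and 7.02%. In ethanol the rises were NDUFV1, the NADH-binding core subunit of complex I, at 0.42, NDUFS4 at 0.33, NDUFB5 at 0.30, COX7A2L, which joins complexes III and IV, at 0.27 and ATP5PO at 0.26. The ethanol call of NDUFS4 was lost under 12 alternatives, that of COX7A2L under 6, ATP5PO under 4 and NDUFV1 under 3. In dex the rises were NDUFS4, SDHAF1, SDHAF2, NDUFB5 and COX7A2L, between 0.25 and 0.33, and each of these calls was lost under 6 to 10 alternatives. NDUFB5 was called higher by both CCAR1 and CoCoA depletion in both treatments, and it was the gene called in the same direction in both treatments by more than 1 depletion; these comparisons share the siNS arrays. It lay at 10.99, 11.24, 11.22 and 11.27 on the siCoCoA dex arrays and at 11.22, 11.03, 11.31 and 11.14 on the siCCAR1 dex arrays, against 10.60, 10.96 and 11.12 (lowest, median and highest) on the siNS dex arrays, with overlap in both cases. The NDUFB5 calls in dex were lost under 7 alternatives for siCCAR1 and 8 for siCoCoA, and those in ethanol under 2 and 1. In dex the siCoCoA count was 1 in a fit over the 2 groups alone and between 0 and 4 when 1 array was left out.

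After depletion of CCAR2, 5 of 85 were called lower and none higher in dex, where 8.37% of all genes were called lower and 10.5% higher. The falls were of NDUFB9 at -0.48, ATP5MC1 at -0.47, ATP5MC3 at -0.46, ATP5F1D at -0.37 and NDUFB10 at -0.34. The ATP5F1D call was lost under 8 alternatives, that of NDUFB10 under 4 and that of NDUFB9 under 2. A second ATP5F1D probe gave -0.23. ATP5MC1 lay at 11.25, 10.93, 10.98 and 11.12 on the siCCAR2 dex arrays, below all siNS dex arrays (11.30 to 11.66), and its call was lost with the mean of its probes. In ethanol ATP5MK and UQCRC1 were called higher, at 0.58 and 0.31, and ATP5MC3 and NDUFA6 lower, at -0.49 and -0.37, where 7.24% of all genes were called higher and 8.96% lower. ATP5MK is near background, with means of 5.68 in siCCAR2 and 5.09 in siNS ethanol cells. The UQCRC1 call was lost under 5 alternatives. With the replicate number as a block, 7 genes were lower and 1 higher in dex. For each of these depletions the share of oxidative phosphorylation genes called was below that of all genes.

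Dex itself changed almost none of these genes. In siNS cells 1 of 85 was called higher and none lower, where 7.7% of all genes were called higher and 8.61% lower, and 3 of 85 had an unadjusted p under 0.05. The gene was NDUFAF6, an assembly factor of complex I. It lay at 8.09, 8.38 and 8.46 (lowest, median and highest) on the siNS dex arrays, and at 7.65, 7.87 and 7.98 on the siNS ethanol arrays. The groups did not overlap, and the difference was 0.48 ± 0.09, or 1.40-fold (SE; adjusted p = 1.4e-04).

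NDUFAF6 was also called higher with dex in 3 of the 4 depletions. It lay at 8.19, 8.32, 8.39 and 8.25 with dex and at 7.71, 7.94, 7.79 and 7.99 with ethanol in siCCAR1 cells, a difference of 0.43 (adjusted p = 0.010). It lay at 8.18, 8.03, 8.13 and 8.14 with dex and at 7.73, 7.70, 8.03 and 7.58 with ethanol in siCoCoA cells, a difference of 0.36 (adjusted p = 0.035). It lay at 7.89 and 8.19 with dex and at 7.28 and 7.29 with ethanol in siZNF282 cells, a difference of 0.75 (adjusted p = 0.0019). The treatments overlapped in siCoCoA cells by 1 array each and did not overlap in siCCAR1 and siZNF282 cells. In siCCAR2 cells the difference was 0.27 and was not called (adjusted p = 0.15). The siCoCoA call was lost under 7 alternatives, 6 of them leaving out 1 array. The siCCAR1 call was lost without ethanol array 1, and the siZNF282 call without dex array 3 and in a fit over those groups alone. No difference between the NDUFAF6 response of depleted and siNS cells was called (-0.05 for siCCAR1, -0.13 for siCoCoA, -0.21 for siCCAR2 and 0.27 for siZNF282).

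**Figure D5:**
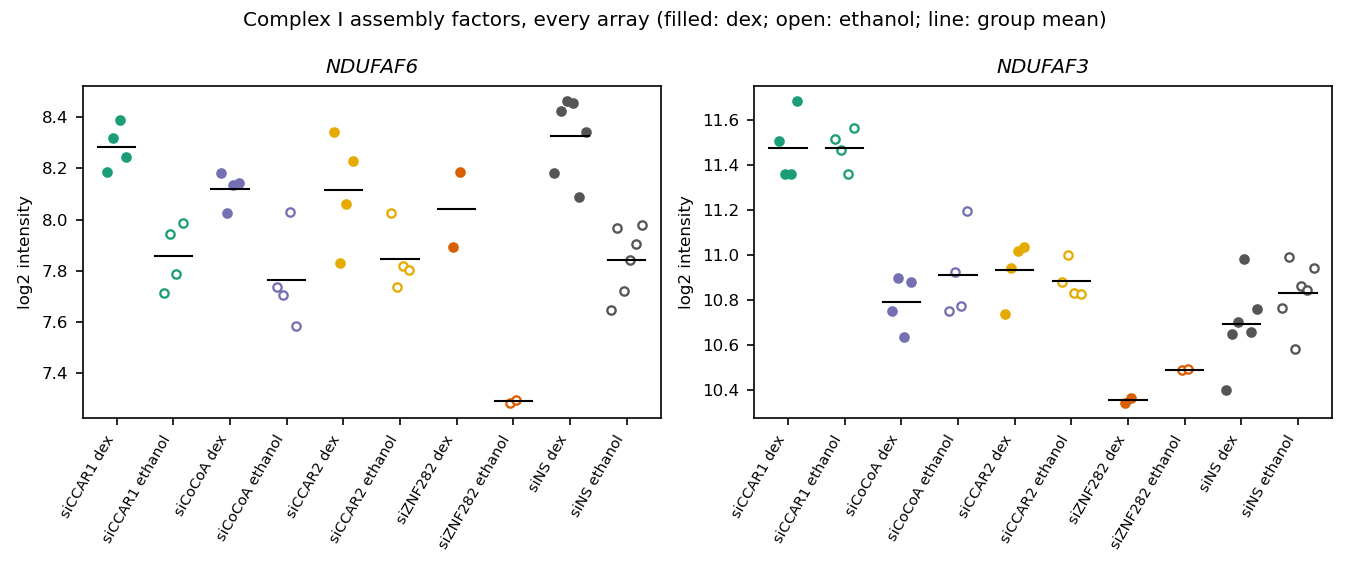
Log2 intensity of NDUFAF6 (left) and NDUFAF3 (right) on every array (points), by siRNA and treatment, with the group mean as a line. NDUFAF6 is higher with dex than with ethanol on average for each siRNA, and NDUFAF3 lies between 11.36 and 11.68 on all siCCAR1 arrays, above all siNS arrays.

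The counts with dex in the depleted cells were as small. In siCCAR1 and siCoCoA cells NDUFAF6 was the 1 call, where 7.68% and 9.93% of all genes were called (4.33% and 5.36% higher, 3.36% and 4.56% lower). In siZNF282 cells ATP5MC1 was called lower with dex (-0.86, adjusted p = 0.0028) beside the rise of NDUFAF6, where 3.9% of all genes were called higher and 2.29% lower. The ATP5MC1 call was lost without siZNF282 dex array 2 and in a fit over those groups alone. In siCCAR2 cells NDUFA6, an accessory subunit of complex I, was called higher at 0.32 (adjusted p = 0.046), where 9.72% of all genes were called (6.47% higher and 3.25% lower). That call was lost under 10 alternatives. With the replicate number as a block there were 2 calls, 1 higher and 1 lower, in each of siCoCoA and siCCAR2 cells.

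No gene of the 85 was called by limma for a different dex response in depleted and siNS cells. For siCCAR1, 0.104% of all genes were called (0.00943% with a higher and 0.0943% with a lower response), and 0 of the 85 had an unadjusted p under 0.05. For siCoCoA, 0.00943% of all genes were called, and 2 of the 85 had an unadjusted p under 0.05. For siCCAR2 it was 0.0848% of all genes (0.066% higher and 0.0189% lower) and 4 of the 85, and for siZNF282 0.245% (0.0848% higher and 0.16% lower) and 4 of the 85. Few genes of any kind were called in these comparisons. The largest difference was that of ATP5MC1 in siZNF282 cells, at -0.84 with a 95% interval from -1.28 to -0.40 (adjusted p = 0.097). No single gene's fall in siZNF282 cells was therefore shown to differ between dex, with 29 falls, and ethanol, with 15.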

How the data were processed

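The deposited values are log2 probe intensities that the authors had already normalized between arrays. The log base was read from their range of 4.13 to 14.3, and limma 3.14.4 is named in the submitters' processing notes; the background correction and normalization steps are not given in the sources used here. A table of non-normalized signals has 80 columns that no label pairs with a sample, and they were not used. Probes with 1 gene symbol (26360 of 34469) were kept, those with a group mean above 5 were tested, and the brightest probe stood for a gene. One model with a mean for each of 10 groups was fitted to 40 arrays in limma 3.58.1 (functions lmFit and eBayes, R 4.3.3), leaving 30 residual degrees of freedom beside 5.86 from the prior. P-values are two-sided and were adjusted by Benjamini-Hochberg over 10608 genes, with a threshold of 0.05. The script was tested on simulated data. The number of arrays limits the precision.

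The members and lists were chosen with earlier results of these data known, so no test over a list was made. Named genes were, per comparison, up to 4 largest called rises and 4 largest called falls, with isoforms and the brightest and dimmest genes; others named, and the division of complex I and ATP synthase into parts, were chosen after their values were seen. Alternatives were another intensity line, no filter, the mean of probes, a fit over the groups compared, the replicate number as a block, centred or quantile-normalized arrays, an intensity trend, and leaving out each array. Same-numbered arrays deviated together at every pair for dex against ethanol (correlations from 0.13 to 0.47; siZNF282 has only 2 pairs), and for siCoCoA and siCCAR2 against siNS in dex. In the other comparisons with siNS this did not hold, or there were only 2 pairs.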

Additional observations from a re-analysis of the deposited data

Results flagged for a closer look

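Among 104 groups of values for named genes and array medians, 4 held an array farther from the rest than a test for single outliers allows; chance marks about 1 in 20 groups, so the number is not above what chance gives. SDHD lay at 9.39 on siCCAR1 ethanol array 1, against 9.52 to 9.54 on the other 3 arrays of that group. NDUFB5 lay at 10.99 on siCoCoA dex array 1, against 11.22 to 11.27. ATP5MK lay at 4.62 on siNS dex array 1, against 5.07 to 5.27. The median difference of the 85 genes from the siNS ethanol mean was 0.147 on siCoCoA dex array 4, against 0.021 to 0.034.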

How the results depend on the processing

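The 15 falls in siZNF282 ethanol cells became 12 to 20 calls under the 8 alternatives that keep all arrays and 10 to 14 when 1 array was left out. The 29 falls in siZNF282 dex cells became 25 to 34 under 7 of these 8 alternatives, 14 in a fit over the groups compared, and 7 to 29 when 1 array was left out. With only the groups compared, the count was also 0 for dex in siCoCoA, siCCAR2 and siZNF282 cells, 7 for siCCAR1 in ethanol, 2 for siCCAR1 in dex, 1 for siCoCoA in dex, 3 for siCCAR2 in dex, and 15 for siZNF282 against the other depletions in ethanol. The replicate block gave 2 calls for dex in siCoCoA and in siCCAR2 cells, 9 for siCCAR1 and 8 for siCCAR2 in ethanol, and 8 for siCCAR2 in dex; it moved no other count by more than 1.5 times. The mean of probes gave 2 calls for dex in siCoCoA and in siCCAR2 cells and 3 in siNS cells. Dex in siCCAR2 cells gave 0 with no filter or centred arrays. For siCoCoA in ethanol the count was 8 with a line of 6, 3 after quantile normalization and 9 with an intensity trend, and in dex it was 3 with centred or quantile-normalized arrays.

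With 1 array left out, the counts for dex were 0 to 1 in siCCAR1 and siCoCoA cells, 0 to 3 in siCCAR2, 1 to 3 in siZNF282 and 1 to 1 in siNS cells. Against siNS in ethanol they were 2 to 4 for siCCAR1, 1 to 6 for siCoCoA and 3 to 5 for siCCAR2, and in dex 1 to 7, 0 to 4 and 4 to 7. Differences in dex response gave 0 to 2 for siZNF282 and 0 to 0 for the others. Against the other depletions siZNF282 gave 12 to 28 in ethanol and 6 to 29 in dex. Of 2585 alternatives to 137 called values of single genes, 2161 kept the call, 423 lost it and 1 reversed. The value of NDUFS4, siZNF282 against the other 3 depletions in ethanol, was -0.39 with all arrays and ranged from -0.81 without siZNF282 ethanol replicate 2 to 0.032 without replicate 3. The cause of these changes was not tested. A start from the non-normalized signals was not run, because their columns could not be paired with samples. With 1 siZNF282 array left, its spread was taken from the other groups.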
